A study of Homo sapiens with 8 samples.

Results

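The genes described here encode the proteins of the mitochondrial ribosome. They were chosen by symbol, as protein-coding genes of both tables whose symbol is MRPL or MRPS followed by a number and at most 1 letter, and 78 of the 58302 listed genes met that rule. By role, 51 of them encode proteins of the large subunit, 26 encode proteins of the small subunit, and MRPS36 carries the name without being a ribosomal protein. The study compared sh-circMYBL2, a hairpin against circMYBL2 (a circular RNA of the MYBL2 gene), with sh-NC, a control hairpin. All cells were of MOLM-13, an established line of acute myeloid leukaemia. The series title asks about translation of FLT3, a receptor tyrosine kinase. Ribosome footprints and input RNA were each sequenced from 2 libraries of sh-circMYBL2 cells and 2 libraries of sh-NC cells, so there were 8 libraries in 4 groups. The labels name this line alone and give no time point, and they leave unsaid whether the replicates were grown as separate cultures. P-values therefore measure the spread between these libraries, which may be technical.

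Mitochondria keep a ribosome of their own, which descends from that of bacteria and makes the membrane proteins of the respiratory chain and ATP synthase that mitochondrial DNA encodes. Its RNAs are made inside the organelle, whereas all its proteins are encoded in the nucleus, translated in the cytosol and imported. It carries counterparts of bacterial ribosomal proteins together with proteins that bacteria lack. Acute myeloid leukaemia cells are known to depend on mitochondrial translation. Among the genes described here, 46 have a bacterial counterpart and 31 encode proteins particular to the mitochondrial ribosome.

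Promoter sequences of 69 of the 78 genes were in the RefSeq table used (GRCh38.p14), each running from 250 bases before to 50 bases after the annotated start. They were searched on both strands for short letter strings that go with factors known to act at such promoters: CCGGAAG for the ETS family, to which the nuclear respiratory factor GABPA belongs, ATGGCGG for YY1, GCGCATG for NRF1, CACGTG for E-box factors such as MYC, TATAAA for the TATA box, and CCAAT for NFY. The ETS string was in 42.0% of the 69 promoters, against 22.9% of the 7267 promoters of protein-coding genes with a mean of at least 1 FPKM and 14.2% of all 15843. ATGGCGG was in 34.8%, against 12.2% and 7.63%. GCGCATG was in 10.1% (8.59% and 5.87% in the other sets), CACGTG in 8.70% (10.9% and 8.88%), CCAAT in 29.0% (37.8% and 36.4%) and TATAAA in 2.90% (5.33% and 9.63%). In 25 of the 29 promoters with CCGGAAG a copy lay within 100 bases of the start. In 20 of the 24 promoters with ATGGCGG a copy lay after the start, where these letters can also belong to an initiator codon and the first bases of coding sequence. At least 1 of the strings for ETS factors, YY1 and NRF1 was in 48 of the 69 promoters. Related lists were closer to the set. Of the 50 promoters of nuclear oxidative phosphorylation genes, ATGGCGG was in 36.0%, CCGGAAG in 30.0% and GCGCATG in 10 promoters. Of the 66 promoters of cytosolic ribosomal protein genes, CCGGAAG was in 33.3%, ATGGCGG in 18.2% and GCGCATG in 9.09%. The share with ATGGCGG is thus not particular to this set. Whether the share with CCGGAAG differs between these lists was not tested. A match is a description of the letters, not of a bound site.

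The windows below run from 100 bases before to 50 bases after the start and are printed in the direction of transcription, with matches to the ETS, YY1 and NRF1 strings in capitals. MRPL20, MRPL16, MRPS21 and MRPS6 are shown because their RNA differed between the hairpins, MRPS34 because its footprints were the highest of the group and its promoter held 3 ETS matches and 1 YY1 match, and MRPL17 because it held 3 NRF1 matches, of which 2 overlap as opposite strands of the same letters. MRPS6 had no match to these 3 strings in its window.
MRPL20, chr1:1407244-1407393, minus strand: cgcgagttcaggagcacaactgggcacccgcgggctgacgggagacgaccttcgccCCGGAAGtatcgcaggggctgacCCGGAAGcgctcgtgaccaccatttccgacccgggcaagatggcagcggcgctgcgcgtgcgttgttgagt
MRPL16, chr11:59810729-59810878, minus strand: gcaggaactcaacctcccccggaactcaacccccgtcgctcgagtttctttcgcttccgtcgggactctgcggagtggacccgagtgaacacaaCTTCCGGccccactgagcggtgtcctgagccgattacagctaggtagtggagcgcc
MRPS21, chr1:150293761-150293910, plus strand: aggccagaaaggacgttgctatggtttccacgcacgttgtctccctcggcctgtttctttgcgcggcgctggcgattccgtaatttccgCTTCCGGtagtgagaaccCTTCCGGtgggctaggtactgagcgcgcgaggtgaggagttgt
MRPS6, chr21:34073478-34073627, plus strand: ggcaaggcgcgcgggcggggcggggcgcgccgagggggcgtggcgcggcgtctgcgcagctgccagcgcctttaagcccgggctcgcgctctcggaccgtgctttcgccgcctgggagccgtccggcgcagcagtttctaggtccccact
MRPS34, chr16:1773085-1773234, minus strand: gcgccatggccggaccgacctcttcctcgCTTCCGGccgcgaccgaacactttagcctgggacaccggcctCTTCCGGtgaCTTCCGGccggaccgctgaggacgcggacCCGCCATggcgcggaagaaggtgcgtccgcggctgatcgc
MRPL17, chr11:6683291-6683440, minus strand: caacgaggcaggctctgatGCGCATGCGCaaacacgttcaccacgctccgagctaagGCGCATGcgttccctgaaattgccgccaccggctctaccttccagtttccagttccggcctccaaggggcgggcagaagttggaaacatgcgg

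Between 13504615 and 14603214 reads fell on genes in each input RNA library, as recovered from the deposited values. The footprint libraries were far shallower, with 222819 and 714981 reads in sh-circMYBL2 libraries a and b and 80137 and 300340 reads in sh-NC libraries 1 and 2. The letters a and b stand for columns that name the hairpin but not the replicate. MicroRNA genes took 32.8% and 12.2% of the footprint reads in the sh-circMYBL2 libraries, against 42.7% and 57.2% in the sh-NC libraries. All 10 markers of the myeloid line reached a mean of 1 FPKM with either hairpin, while none of the 4 erythroid, 4 megakaryocyte, 4 lymphoid and 4 adherent or stromal cell markers did. The summed level of the myeloid markers was 311 to 318 FPKM with sh-circMYBL2 and 265 to 272 FPKM with sh-NC. They did not all move together: RNA of 6 of the 10 was higher with sh-circMYBL2, with changes from -0.35 to 0.65 on the log2 scale. By limma at an adjusted p under 0.05, 4 were called higher and 0 lower, where 4.92% and 3.96% of all tested genes were. The part of these markers in the results below was not tested. No row was matched to circMYBL2, so its loss was not checked.

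In input RNA nearly the whole set was expressed. Mean levels over the 4 RNA libraries ran from 0.150 to 119 FPKM with a median of 10.2 FPKM, and 73 of the 78 genes reached a mean of 1 FPKM. The tested genes had a median of 11.01 FPKM, against 6.39 FPKM over all tested protein-coding genes. Small subunit genes had a median of 12.2 FPKM and large subunit genes one of 8.42 FPKM. Split by origin, the 30 large subunit genes with a bacterial counterpart had a median of 12.5 FPKM and the 21 particular to mitochondria one of 7.31 FPKM. In the small subunit the order was the other way, with 9.51 FPKM for the 16 genes with a bacterial counterpart and 17.04 FPKM for the 10 particular to mitochondria. None of these differences in level was tested. FPKM divides reads by gene length and a total for each library, here adjusted by size factors. Levels can thus be set side by side across genes within this scale.

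The highest RNA level belonged to MRPL15, a large subunit protein with a bacterial counterpart, at 124 and 126 FPKM in the sh-circMYBL2 libraries and 110.2 and 116 FPKM in the sh-NC libraries. MRPL33, which was next, had 91.7 and 89.98 FPKM with sh-circMYBL2 and 93.5 and 90.75 FPKM with sh-NC. These 2 genes stood apart from the rest, and their groups did not overlap for MRPL15 and overlapped for MRPL33. MRPS18B followed with 55.9 and 53.3 FPKM with sh-circMYBL2 and 48.4 and 54.4 FPKM with sh-NC. MRPL1, part of the stalk that handles the outgoing transfer RNA, had 34.7 and 37.5 FPKM with sh-circMYBL2 and 39.0 and 39.4 FPKM with sh-NC. MRPS10, a small subunit protein, had 34.1 and 34.4 FPKM with sh-circMYBL2 and 35.0 and 37.0 FPKM with sh-NC. MRPL1 and MRPS10 were adjacent in the order, and their ranges over the libraries overlapped.

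At the other end, 5 genes had a mean under 1 FPKM and were not tested. MRPL23, whose protein lies at the mouth of the tunnel through which new chains leave, had 0.194 and 0.231 FPKM with sh-circMYBL2 and 0.126 and 0.0468 FPKM with sh-NC, from 2 to 10 reads a library. MRPL38 had 0.157 and 0.244 FPKM with sh-circMYBL2 and 0.185 and 0.266 FPKM with sh-NC. MRPL53 had 0.482 and 0.359 FPKM with sh-circMYBL2 and 0.559 and 0.362 FPKM with sh-NC. MRPS24, the small subunit gene of lowest RNA, had 1.048 and 0.369 FPKM with sh-circMYBL2 and 0.460 and 0.691 FPKM with sh-NC. MRPS17 was the other gene under 1 FPKM. These low values rest on few reads. Over the whole set, 75 pseudogenes of 34 genes are listed in the tables, and they held 1752 RNA reads against 156041 for the genes themselves. The listed copies of MRPL53 and MRPS17 held at most 1 RNA read each, and no copy of MRPL23, MRPL38 or MRPS24 was matched. MRPS24 also overlaps an annotated readthrough gene, which was listed at 0. How reads shared by copies or overlapping genes were counted is not given in the sources used here. Whether such reads were lost was not tested.

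**Figure D1:**
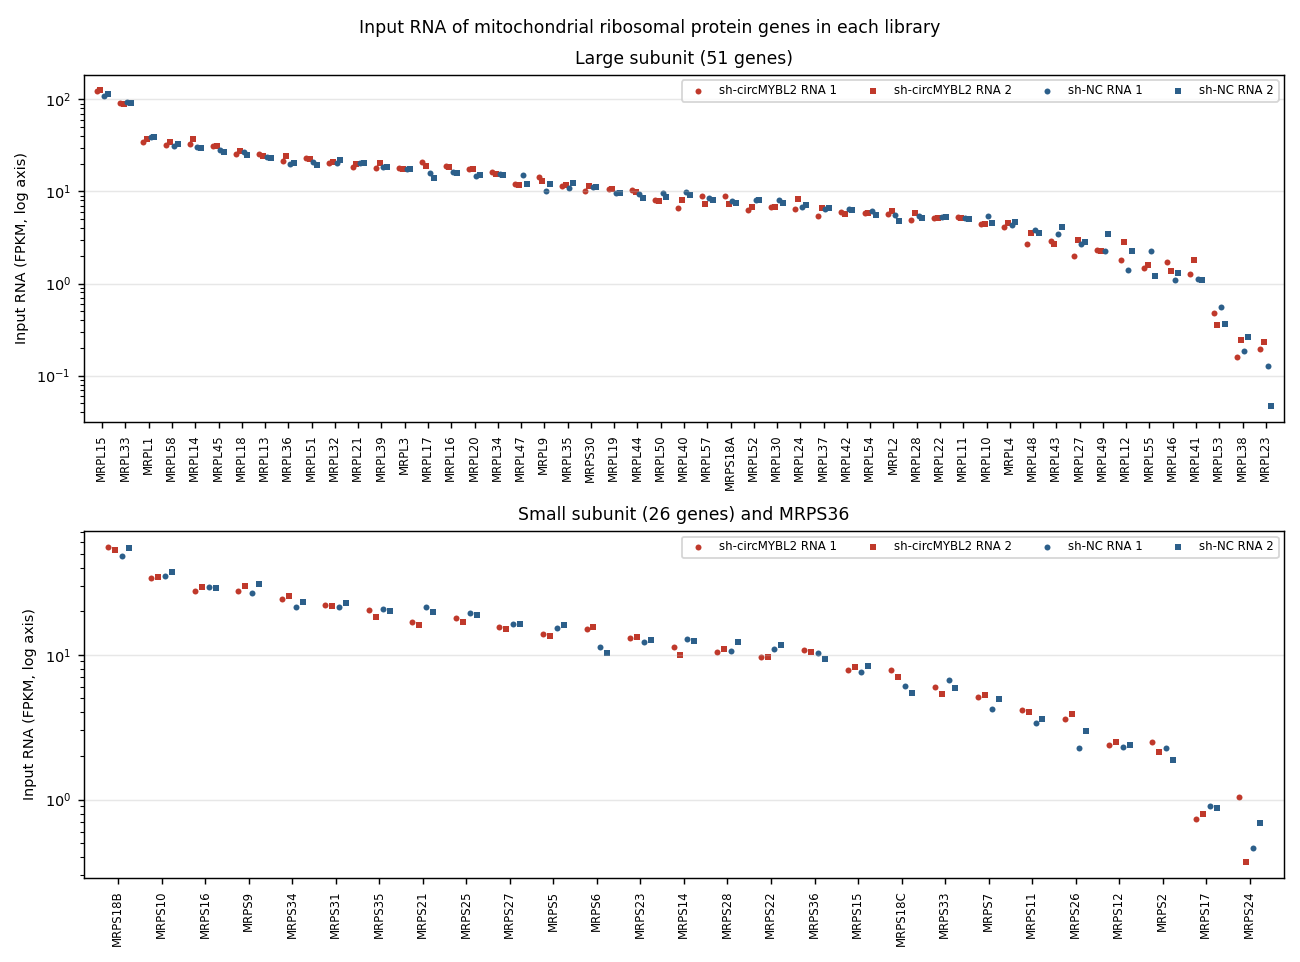
Input RNA level (FPKM, log axis) of each mitochondrial ribosomal protein gene in the 2 sh-circMYBL2 libraries (red) and the 2 sh-NC libraries (blue), genes ordered by their mean within each subunit. Levels span 0.150 to 119 FPKM in the mean, and the libraries of both hairpins lie close together for most genes.

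Between the hairpins, the RNA of 4 of the 73 tested genes changed at an adjusted p under 0.05 (limma on log2(FPKM + 1), Benjamini-Hochberg over 12489 genes). MRPS6, MRPL20 and MRPL16 rose with sh-circMYBL2 and MRPS21 fell. Over all tested genes 8.88% were called, 4.92% as higher and 3.96% as lower, so 4 of 73 is no larger a share than the background. The median change of the 73 genes was 0.01 on the log2 scale, against 0.00 for all genes, and the middle of the distribution ran from -0.10 to 0.15 between its quartiles. In bulk RNA, fewer cells of a type and less RNA per cell cannot be told apart.

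MRPS6, a small subunit protein with a bacterial counterpart (ENSG00000243927, chromosome 21, 34073578 to 34143030 in GRCh38.p14), had 15.2 and 15.6 FPKM in the sh-circMYBL2 libraries and 11.4 and 10.4 FPKM in the sh-NC libraries. Both sh-circMYBL2 libraries lay above both sh-NC libraries, by 0.47 on the log2 scale (SE 0.06, 95% interval 0.30 to 0.63, limma adjusted p = 0.0286). The transporter gene SLC5A3, for myo-inositol, lies within the MRPS6 locus. SLC5A3 had 12.2 and 11.7 FPKM with sh-circMYBL2 and 8.06 and 7.78 FPKM with sh-NC, a rise of 0.54 (SE 0.05, limma adjusted p = 0.0176). How the reads were divided between the overlapping genes is not given in the sources used here, so a change of MRPS6 alone was not tested. SLC5A3 was chosen after its values were seen.

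MRPL20 (ENSG00000242485, chromosome 1, 1401909 to 1407293), whose bacterial counterpart is needed early in the assembly of the large subunit, had 17.7 and 17.5 FPKM with sh-circMYBL2 and 14.7 and 15.1 FPKM with sh-NC. The groups did not overlap, and the rise was 0.22 (SE 0.04, 95% interval 0.12 to 0.33, limma adjusted p = 0.0459). MRPL16 (ENSG00000166902, chromosome 11, 59806140 to 59810778), which lies near the catalytic centre of the large subunit, had 18.8 and 18.6 FPKM with sh-circMYBL2 and 16.2 and 15.9 FPKM with sh-NC. It also showed no overlap, with a rise of 0.21 (SE 0.04, 95% interval 0.11 to 0.31, limma adjusted p = 0.0497). MRPS21 (ENSG00000266472, chromosome 1, 150293861 to 150308979), a small subunit protein with a bacterial counterpart, had 16.9 and 16.2 FPKM with sh-circMYBL2 and 21.3 and 19.9 FPKM with sh-NC. It fell by 0.30 (SE 0.05, 95% interval -0.44 to -0.16, limma adjusted p = 0.0467). MRPL20 overlaps an antisense RNA gene and a small RNA pseudogene in the annotation, and MRPL16 and MRPS21 overlap no annotated gene. All 4 calls were lost when any 1 of the 4 RNA libraries was left out, as were all the calls in the table, and also with no filter on low values (limma adjusted p of 0.0865 to 0.117). With no filter, calls over all genes fell to 56 higher and 41 lower of 29835, from 615 and 494 of 12489. At about the same fold, MRPL16 also missed the threshold with a pseudocount of 0.1 (limma adjusted p = 0.0514) and after quantile normalization (0.0558). MRPS21 did so at -0.17 when values were scaled to the protein-coding sum (0.0861).

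The other 69 tested genes did not pass. Changes ran from -0.35 to 0.47 over the 73 genes, 37 of them above 0. Of these genes 23 had an unadjusted p under 0.05, where the share over all tested genes was 29.2%. The 2 sh-circMYBL2 libraries lay above both sh-NC libraries for 24 genes and below them for 17, and over all tested genes these shares were 30.0% and 30.7%. Large subunit genes had 2 higher and 0 lower of 48 tested, with a median of 0.02. Small subunit genes had 1 higher and 1 lower of 24, with a median of -0.01. All 4 called genes belong to the 43 tested ones with a bacterial counterpart, whose median was 0.02. That is 9.30% of the 43, near the 8.88% called over all tested genes. None of the 29 particular to mitochondria passed (median -0.02, 10 with an unadjusted p under 0.05). Whether these classes differ was not tested. By promoter, the 27 tested genes with an ETS match had a median RNA change of -0.02 and the 38 without one had 0.03. The 22 genes with a YY1 match had a median of -0.04 and the 43 without had 0.03.

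**Figure D2:**
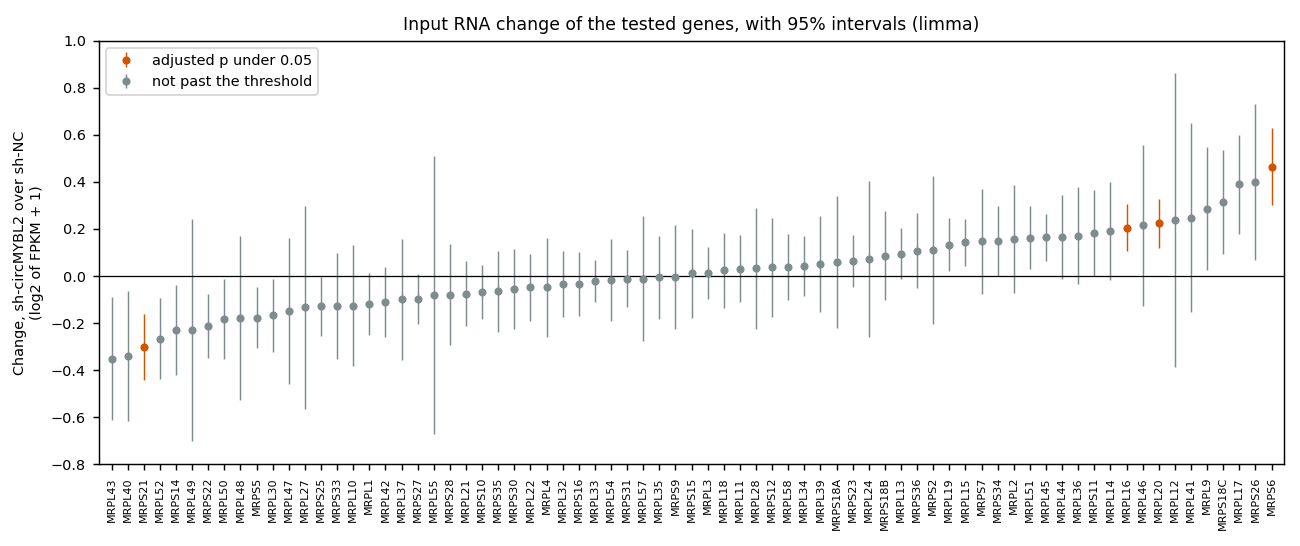
Change of input RNA (log2 of FPKM + 1, sh-circMYBL2 over sh-NC) of the 73 tested genes with 95% intervals from limma, ordered by size. The 4 genes at an adjusted p under 0.05 are in orange, and the changes centre on a median of 0.01.

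As a set, the 78 genes held 0.355% and 0.358% of protein-coding RNA reads in the sh-circMYBL2 libraries and 0.347% and 0.347% in the sh-NC libraries. Both sh-circMYBL2 shares lay above both sh-NC shares. With 2 libraries against 2 an exact permutation test cannot go below p = 0.333, so no test is given. The 95% Wilson intervals, which cover counting error only, were 0.352% to 0.359% and 0.355% to 0.361% for sh-circMYBL2, against 0.344% to 0.351% for both sh-NC libraries. The denominator includes the 13 mRNAs encoded in mitochondrial DNA, the products that this ribosome translates. These mRNAs took 4.62% and 4.39% of those reads in the sh-circMYBL2 libraries and 7.49% and 7.30% in the sh-NC libraries, and 12 of the 13 fell (median -1.30). The RNA of the ribosome's proteins thus had a median change of 0.01 in libraries in which that of the mitochondrial mRNAs was -1.30. A lower share of those mRNAs raises the share of every other gene. Shares without them were not taken, so the higher shares of the set are not read as a rise. Cytosolic ribosomal protein genes had 0 higher and 2 lower of 80 tested (median -0.005), and nuclear genes of oxidative phosphorylation had 7 higher and 0 lower of 73 (median 0.08).

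**Figure D3:**
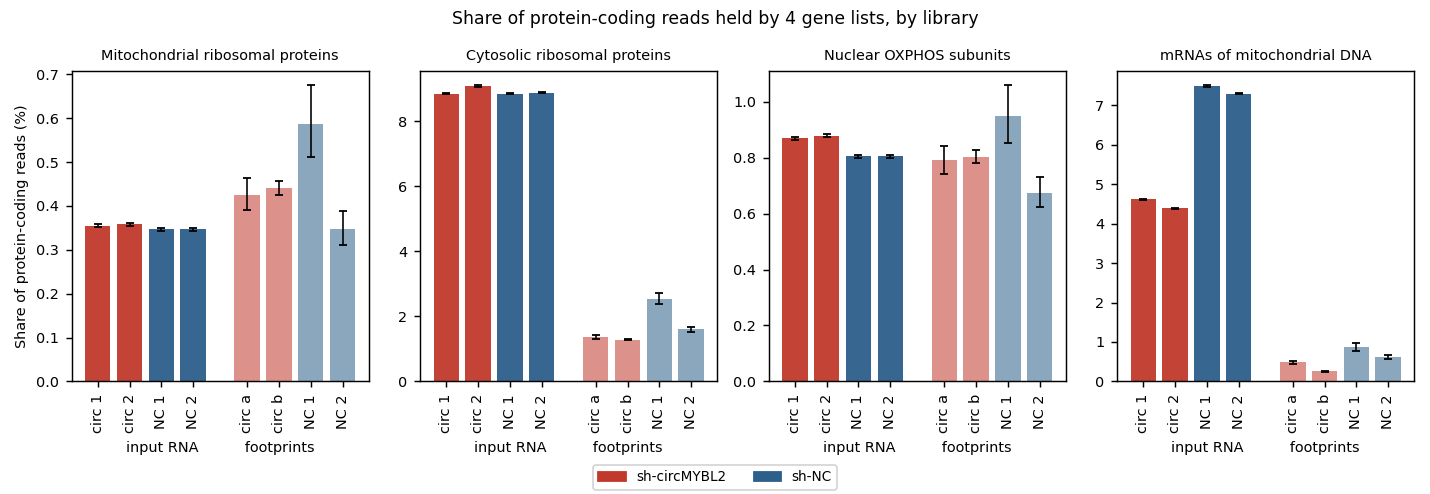
Share of protein-coding reads (%) held by 4 gene lists in each library, with 95% Wilson intervals (counting error only). In each panel the solid bars are input RNA and the pale bars footprints, sh-circMYBL2 in red and sh-NC in blue. The mitochondrial ribosomal protein genes held 0.347% to 0.358% of RNA reads and 0.347% to 0.587% of footprint reads.

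Footprints of the set were few. The 78 genes had 3109 footprint reads in the 2 sh-circMYBL2 libraries and 506 in the 2 sh-NC libraries. With sh-circMYBL2, 72 genes had a read in both libraries, 4 in 1 library and 2 in neither. With sh-NC, 32 had a read in both, 35 in 1 and 11 in neither. MRPL38 and MRPS24, both among the genes of lowest RNA, had no footprint read in any library. Across the 78 genes, log2(RPKM + 1) of libraries a and b correlated with a Pearson r of 0.747, and that of sh-NC libraries 1 and 2 with an r of 0.149. Over 9093 protein-coding genes with a mean of at least 1 FPKM the same pairs gave r of 0.882 and 0.571. In input RNA the 78 genes gave r of 0.994 with either hairpin. These are correlations across genes of shared libraries, which are not independent replicates, and the sh-NC footprint libraries are the shallowest.

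**Figure D4:**
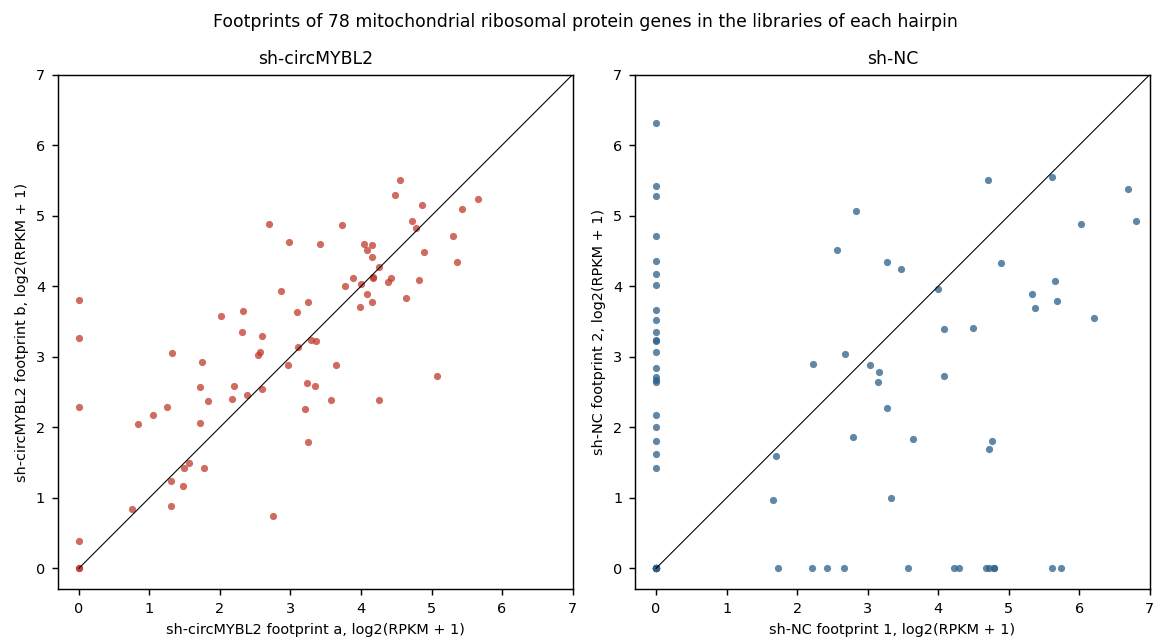
Footprints of the 78 genes, log2(RPKM + 1), in sh-circMYBL2 library a against library b (left) and in sh-NC library 1 against library 2 (right), with the line of equal values. Points on an axis are genes with no read in that library, and Pearson r is 0.747 on the left and 0.149 on the right.

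The highest mean footprint level belonged to MRPS34, a small subunit protein particular to mitochondria, with 49.3 and 36.8 RPKM in sh-circMYBL2 libraries a and b and 111 and 29.5 RPKM in sh-NC libraries 1 and 2. MRPL15 had 42.2 and 33.2 RPKM with sh-circMYBL2 and 102 and 40.7 RPKM with sh-NC. The first sh-NC library was high for both genes, on 10 reads each, and the groups overlapped for both. MRPL14, a large subunit protein at the face where the subunits meet, had 28.2 and 34.7 RPKM with sh-circMYBL2 and 0 and 78.6 RPKM with sh-NC. MRPS18B had 12.3 and 28.1 RPKM with sh-circMYBL2 and 64.4 and 28.5 RPKM with sh-NC. MRPL32, which a mitochondrial protease cuts to its mature form before assembly, had 32.8 and 5.59 RPKM with sh-circMYBL2 and 48.2 and 45.7 RPKM with sh-NC. MRPL14 overlapped between the groups, while MRPS18B and MRPL32 were lower in both sh-circMYBL2 libraries than in either sh-NC library, MRPS18B by a narrow margin. The order of footprint levels among these 5 genes is not settled, since their ranges overlap.

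No gene of the set passed in the footprint comparison, and none of the 9431 genes tested did (limma, 0.0% called). Of the 72 genes of the set tested, 4 had an unadjusted p under 0.05, where the share over all tested genes was 12.9%. Voom on recovered reads called 0 of the 72, and 4 higher and 29 lower of all genes. Without sh-circMYBL2 library a the fit called 5 genes of the set higher, and without library b it called 4, where 742 of 8987 and 710 of 8961 genes were called higher in all. With 1 library left in a group, its spread is taken from the other group, and for genes at 0 in both sh-NC libraries that spread is nil, so these calls are not read as changes. The median change was 0.75 on the log2(RPKM + 1) scale, against 0.56 for all genes tested. Among the 32 genes of the set with a read in every footprint library it was 0.12, against -0.01 for all such genes. The 2 sh-circMYBL2 libraries lay above both sh-NC libraries for 22 of the 72 genes and below them for 5, and over all tested genes those shares were 30.7% and 10.9%.

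The smallest p-values among higher genes belonged to MRPL55, MRPS31, MRPL11, MRPS21 and MRPS30. All but MRPS30 had no read in either sh-NC library, so they passed the filter only through the sh-circMYBL2 libraries and are not read as changes. MRPS31, a small subunit protein particular to mitochondria, had 10.9 and 4.23 RPKM with sh-circMYBL2, on 3 and 5 reads, and no read in either sh-NC library. Its change was 2.98 (SE 0.76, limma adjusted p = 0.323). MRPS30, which despite its name sits in the large subunit, had 16.8 and 20.3 RPKM with sh-circMYBL2, on 27 and 140 reads, and 7.84 and 5.21 RPKM with sh-NC, on 4 and 6 reads. MRPS30 was the only 1 of the 5 with reads in all 4 libraries, and its groups did not overlap (change 1.39, SE 0.52, 95% interval -0.04 to 2.82, limma adjusted p = 0.402). Its input RNA differed by -0.06 (SE 0.06, limma adjusted p = 0.602).

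Among lower genes the smallest p-values belonged to MRPL1, MRPL32, MRPS18B, MRPL24 and MRPL15. MRPL1 had 15.9 and 13.9 RPKM with sh-circMYBL2, on 8 and 30 reads, and 25.02 and 44.4 RPKM with sh-NC, on 4 and 16 reads. Both sh-circMYBL2 libraries were below both sh-NC libraries, and the change was -1.12 (SE 0.50, 95% interval -2.47 to 0.24, limma adjusted p = 0.492). MRPL24, a large subunit protein, had 2.28 and 3.18 RPKM with sh-circMYBL2, on 1 and 6 reads, and 7.17 and 6.36 RPKM with sh-NC, on 1 and 2 reads. Its groups did not overlap either (change -1.07, SE 0.65, limma adjusted p = 0.615). MRPL24 overlaps HDGF in the annotation. For MRPL32 the change was -1.68 (SE 0.91), for MRPS18B -1.16 (SE 0.68) and for MRPL15 -0.77 (SE 0.59), with limma adjusted p of 0.576, 0.604 and 0.627.

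Of the 78 genes, 9 were at 0 in both sh-NC footprint libraries and above 0 in both sh-circMYBL2 ones, and 0 showed the opposite. The same pattern was seen in 10.3% of the 9431 genes tested, a set past the filter on low values, whereas the 9 were counted over all 78 genes. No such share was taken for the opposite pattern. Protein-coding footprint reads numbered 709839 with sh-circMYBL2 and 122387 with sh-NC. MRPL11, at the base of the stalk that binds translation factors, had 2 and 31 reads with sh-circMYBL2 and 0 with sh-NC. With 3 reads taken as the floor for the sh-NC libraries together, its share of protein-coding reads was 1.90 times that floor. MRPS18C had 1 and 17 reads with sh-circMYBL2, which gives 1.03 times the same floor. Both values take the sh-circMYBL2 reads as exact, leave out the spread between libraries and rest on library b. In library a alone the shares were 0.649 and 0.324 of the floor for MRPL11 and MRPS18C. Both genes were picked for having no sh-NC read, so neither value is read as a change. MRPL46, MRPL53, MRPL55, MRPS17, MRPS21, MRPS31 and MRPS33 had 3 to 15 reads with sh-circMYBL2, below what the floor can tell from 0. For MRPS21, whose input RNA was lower with sh-circMYBL2, the footprint reads numbered 1 and 12, so its footprint direction is not established at this depth.

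Translational efficiency was taken as the change of footprints beyond that of RNA, which is the term for hairpin by assay when all 8 libraries are fitted together. No gene of the 70 tested passed, while 5.31% of 8260 genes did, nearly all of them higher (5.05% higher and 0.266% lower). The calls over all genes fell to 0 of 8260 after quantile normalization and to 0 of 4200 among genes above 0 in every footprint library. The median was 0.87, against 0.57 for all genes, and 7 of the 70 had an unadjusted p under 0.05, where the background share was 19.6%. Among the 32 genes with a read in every footprint library the median was 0.06, against 0.03 for all such genes. Among higher genes, MRPS31 was at 2.99 (SE 0.59, limma adjusted p = 0.0502), MRPL55 at 2.81 (SE 0.58, limma adjusted p = 0.0536), MRPS21 at 2.63 (SE 0.60, limma adjusted p = 0.0659) and MRPL11 at 2.77 (SE 0.75, limma adjusted p = 0.102). All 4 had no footprint read in the sh-NC libraries and passed the filter on footprints only through the sh-circMYBL2 libraries. Their values rest on a group fixed at 0 and are not read as changes. MRPS30, with reads in every library, was at 1.45 (SE 0.38, limma adjusted p = 0.0963). Among lower genes, MRPL24 was at -1.14 (SE 0.40, limma adjusted p = 0.195), MRPL1 at -0.999 (SE 0.43, limma adjusted p = 0.281) and MRPS18B at -1.25 (SE 0.72, limma adjusted p = 0.436). MRPL32 was at -1.65 (SE 1.02) and MRPS11, a small subunit protein, at -0.70 (SE 0.46), with limma adjusted p of 0.469 and 0.509. With 1 footprint library left out, the remaining library of that group is assumed to vary like the other groups, and counts of calls moved for the set and for the table alike. Without sh-circMYBL2 library a the fit called 5 genes higher and 1 lower of 71, and without library b 3 higher and 0 lower of 69, while over all genes it called 744 and 102 of 7960, and 657 and 81 of 7837. Without sh-NC library 1 the fit called 20 higher and 9 lower of 70, and without library 2 it called 30 higher and 14 lower of 72, while over all genes it called 2186 and 934 of 8389, and 3723 and 1230 of 8224.

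In footprints the set held 0.425% and 0.441% of protein-coding reads in sh-circMYBL2 libraries a and b and 0.587% and 0.347% in sh-NC libraries 1 and 2. The sh-NC libraries lay on either side of the sh-circMYBL2 ones. Divided by the share in input RNA of the same hairpin, this gave ratios of 1.19 and 1.24 with sh-circMYBL2 and 1.69 and 1.001 with sh-NC. Large subunit genes had ratios of 1.35 and 1.46 with sh-circMYBL2 and 2.01 and 1.24 with sh-NC. Small subunit genes had 0.966 and 0.894 with sh-circMYBL2 and 1.25 and 0.650 with sh-NC. The large subunit ratio was above the small subunit ratio in all 4 libraries, which share their genes. Ratios of the other lists in sh-circMYBL2 libraries and then in sh-NC libraries were 0.153 and 0.143 against 0.286 and 0.181 for cytosolic ribosomal proteins, and 0.904 and 0.918 against 1.18 and 0.838 for nuclear subunits of oxidative phosphorylation. The mitochondrial mRNAs, which mitochondrial ribosomes translate, had 0.108 and 0.0566 with sh-circMYBL2 and 0.118 and 0.0846 with sh-NC. In all 4 libraries the mitochondrial ribosomal protein genes thus had a footprint share at or above their RNA share, and the cytosolic ribosomal protein genes one well below theirs. The cause of this difference was not tested. Cytosolic ribosomal proteins held 8.85% to 9.09% of protein-coding RNA reads and 1.29% to 2.53% of protein-coding footprint reads. Their low footprint share raises the ratio of every other gene, and ratios without them were not taken. Ratios above 1 are therefore not read as a trait of the set.

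Single genes of the set differed widely in this ratio of footprint share to RNA share, taken over all 8 libraries. Among the 69 genes with at least 10 footprint reads the median was 1.502, and the 95% counting interval lay above 1 for 37 genes and below 1 for 18. The same counts were not taken over all protein-coding genes, so 1 need not be the value of a typical gene. They are not read as a trait of the set. These intervals leave out the spread between libraries, and 584098 of the protein-coding footprint reads came from library b. MRPL12, the stalk protein that recruits translation factors, had a ratio of 10.2 (95% interval 6.24 to 16.1) on 23 footprint reads. MRPS12, which lines the decoding site, had 9.77 (7.15 to 13.1) on 53 reads, and MRPS2, a small subunit protein with a bacterial counterpart, had 9.56 (7.02 to 12.8) on 54 reads. MRPL41, a large subunit protein particular to mitochondria, had 8.50 (4.58 to 14.8) on 15 reads. These 4 genes had low input RNA, with mean levels by hairpin of 1.53 to 2.45 FPKM with sh-circMYBL2 and 1.12 to 2.36 FPKM with sh-NC, and RNA is the denominator of the ratio. MRPL23 reached 14.9 (5.45 to 35.5), but 6 of its 7 footprint reads came from sh-NC library 1.

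By hairpin, the ratio of MRPS12 was 9.03 (6.28 to 12.8) with sh-circMYBL2 and 12.9 (6.06 to 24.5) with sh-NC, and that of MRPS2 was 8.36 (5.83 to 11.8) with sh-circMYBL2 and 14.2 (6.93 to 26.2) with sh-NC. The intervals of both hairpins overlapped for both genes. In sh-NC libraries 1 and 2, MRPS12 had 0 and 10 reads and MRPS2 had 1 and 10, so their sh-NC ratios rest on library 2. For MRPL12 they were 6.91 (3.67 to 12.2) with sh-circMYBL2 and 27.8 (11.4 to 59.0) with sh-NC, all 8 of the sh-NC reads being from library 2. Without library b the pooled ratio was 14.9 for MRPL12, 10.5 for MRPS12, 8.91 for MRPS2 and 15.2 for MRPL41, the 1 of the 4 that moved by more than 1.5 times.

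At the low end were MRPL20 at 0.293 (0.160 to 0.492, 14 footprint reads), MRPS33 at 0.302 (0.145 to 0.557, 10 reads) and MRPL33 at 0.351 (0.262 to 0.461, 52 reads). MRPS9, a small subunit protein whose bacterial counterpart touches the peptidyl transfer RNA, had 0.379 (0.237 to 0.575, 22 reads) and MRPL36, a small protein of the large subunit, 0.381 (0.196 to 0.667, 12 reads). MRPL33 thus had the second highest RNA level and rank 18 in footprints. Its ratio was 0.386 (0.285 to 0.512) with sh-circMYBL2 and 0.138 (0.0285 to 0.404) with sh-NC. Without library b the pooled ratio was 0.140 for MRPL20, 0.203 for MRPS33, 0.430 for MRPL33, 0.751 for MRPS9 and 0.639 for MRPL36, so the values of MRPL20, MRPS9 and MRPL36 moved by more than 1.5 times. Of the 12 reads of MRPL36, 6 came from sh-NC library 1, where its ratio was 5.08 (1.86 to 11.1), and without that library the pooled ratio was 0.198. In the other 3 libraries its ratio was 0 and 0.252 in sh-circMYBL2 libraries a and b and 0 in sh-NC library 2. MRPL36 overlaps NDUFS6, another mitochondrial protein gene, in the annotation. Across all 78 genes, mean RNA and mean footprints correlated with a Pearson r of 0.583 on log2 values (Spearman rho 0.539), against 0.644 (0.616) over 9093 protein-coding genes with a mean of at least 1 FPKM.

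**Figure D5:**
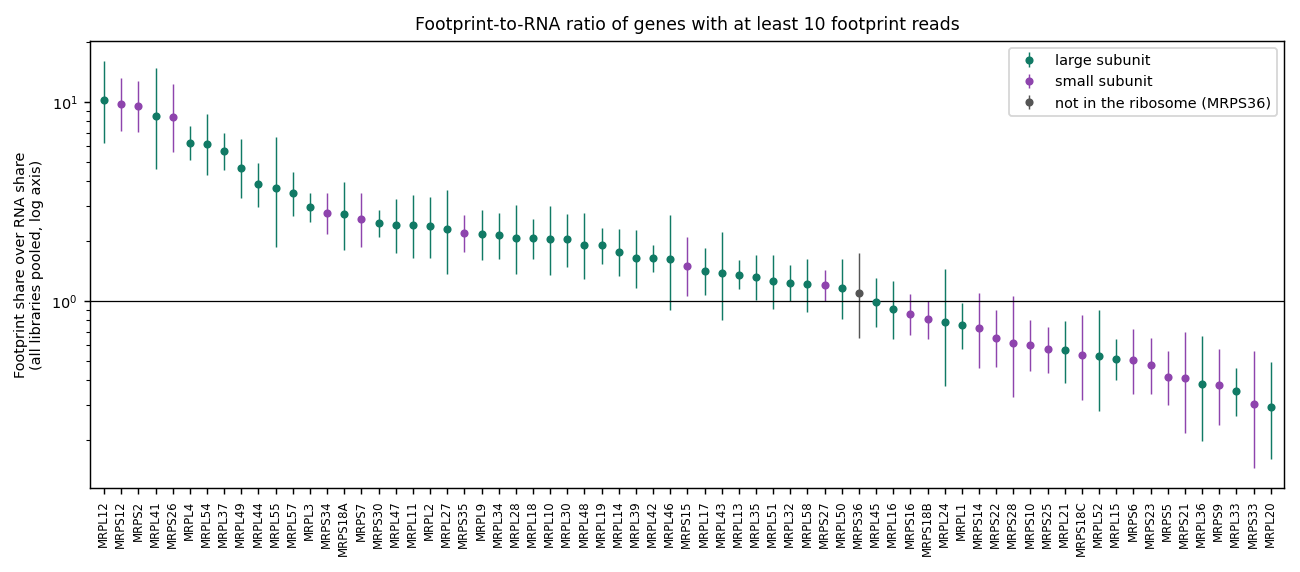
Ratio of footprint share to RNA share (log axis, all libraries pooled) of the 69 genes with at least 10 footprint reads, with 95% counting intervals, large subunit in green and small subunit in purple. Ratios run from 0.293 (MRPL20) to 10.2 (MRPL12) around a median of 1.502.

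MRPS18A, MRPS18B and MRPS18C are paralogs of 1 bacterial protein that occupy different places: MRPS18C takes the bacterial position in the small subunit, MRPS18B another site there, and MRPS18A a site in the large subunit. MRPS18B had the most RNA, given above. MRPS18A had 8.86 and 7.29 FPKM with sh-circMYBL2 and 7.96 and 7.41 FPKM with sh-NC, a difference of 0.06 (SE 0.10, limma adjusted p = 0.745). MRPS18C had 7.82 and 7.005 FPKM with sh-circMYBL2 and 6.06 and 5.47 FPKM with sh-NC, a difference of 0.31 (SE 0.08, 95% interval 0.09 to 0.53, limma adjusted p = 0.0933). The MRPS18A libraries of the hairpins overlapped and those of MRPS18C did not. In footprints MRPS18A had 15.0 and 15.4 RPKM with sh-circMYBL2 and 0 and 8.39 RPKM with sh-NC, MRPS18C had 0.794 and 3.14 RPKM with sh-circMYBL2 and no read with sh-NC, and MRPS18B lay above both in every library except a. Their ratios of footprint share to RNA share were 2.73 (1.81 to 3.96) for MRPS18A, 0.806 (0.643 to 0.998) for MRPS18B and 0.534 (0.315 to 0.846) for MRPS18C. The interval of MRPS18A did not overlap those of the other two, but without library b, on 7 reads for MRPS18A and 1 for MRPS18C, the ratios were 2.21 (0.883 to 4.58) for MRPS18A, 0.827 (0.539 to 1.21) for MRPS18B and 0.0994 for MRPS18C, and the intervals of MRPS18A and MRPS18B overlapped. MRPS18A overlaps RSPH9, listed at under 0.1 FPKM, and MRPS18C overlaps ABRAXAS1, at 7.401 and 7.58 FPKM with sh-circMYBL2 and 8.27 and 8.34 FPKM with sh-NC.

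In related lists of mitochondrial translation and its control, 0.0% to 7.69% of tested genes were called in RNA. Over all tested genes the share was 8.88%, so in lists this small the counts are not read as a trait. Of 5 mitochondrial ribosome proteins with other names, 0 of 5 tested passed (median 0.01). AURKAIP1, a small subunit protein, had 13.9 and 9.15 RPKM of footprints with sh-circMYBL2 and 0 in both sh-NC libraries. Of 27 factors of ribosome assembly and ribosomal RNA modification tested, 0 were higher and 1 lower (median -0.04). The lower gene was TFB1M, which methylates the RNA of the small subunit, at 26.6 and 27.01 FPKM with sh-circMYBL2 and 31.0 and 32.8 FPKM with sh-NC (-0.24, SE 0.04, limma adjusted p = 0.0493). Of 17 translation factors 0 were higher and 1 lower (median -0.005). That gene was GUF1, the mitochondrial counterpart of a bacterial elongation factor, at 12.1 and 11.9 FPKM with sh-circMYBL2 and 15.0 and 15.5 FPKM with sh-NC (-0.32, SE 0.04, limma adjusted p = 0.0286). MTFMT, which formylates the initiator transfer RNA, also had 0 footprint reads in both sh-NC libraries. AURKAIP1 and MTFMT passed the filter on footprints only through the sh-circMYBL2 libraries, so their calls as higher in translational efficiency rest on a group fixed at 0 and are not read as changes. Among 13 regulators of mitochondrial DNA and nuclear control, YY1 was the 1 gene called, with RNA of 13.7 and 13.3 FPKM with sh-circMYBL2 and 10.9 and 10.05 FPKM with sh-NC (0.34, SE 0.06, limma adjusted p = 0.0462). As above, the RNA calls of TFB1M, GUF1 and YY1 were lost with any 1 RNA library left out. TFB1M was also lost with a pseudocount of 0.1 (limma adjusted p = 0.0507) and at -0.11 when values were scaled to the protein-coding sum (0.152).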

How the data were processed

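Ribosomal RNA was removed by kit and small RNA libraries were prepared from all 8 samples, per the labels' protocols. DESeq2, featureCounts, HISAT2, Bowtie and cutadapt, with genome build hg38, are listed in the submitters' processing notes. Their versions, their roles and the strand setting were not given in the sources used here. The authors deposited RPKM values for footprints and FPKM values for input RNA, each over 58302 genes. In both, value times gene length was a whole multiple of a step fixed for each library, so reads were recovered for all 30194 genes above 0 (tolerance 0.02 reads; 97.6% to 99.1% of microRNA values above 0 came out whole). They gave depths, shares, Wilson intervals for shares, exact binomial intervals for ratios, and the floor of 3 reads, and entered no main test. The tables had been scaled by size factors, so levels set across them are descriptions.

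Each table was fitted with limma 3.58.1 in R 4.3.3 (two-sided, eBayes with trend). Values entered as log2(value + 1), genes whose mean over the 4 libraries was below 1 were left out, and Benjamini-Hochberg adjustment ran over all genes tested. The fit of translational efficiency pools the spread of both assays, and its p-values may be too small. Fits and read recovery were tested on simulated data. Python 3.11.15 was used for the rest. In 27 symbols the tables differed through date conversion, and the intact spelling was used.

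The genes, lists and tests were chosen with earlier results of these data known. Genes named were those called, the 5 highest and 4 lowest in RNA, the 5 highest in footprints, up to 5 of smallest p in each direction for footprints and translational efficiency, up to 5 highest and lowest in ratio (at least 10 footprint reads or a mean of 5 RPKM), the MRPS18 paralogs, genes at 0 in both libraries of 1 footprint group, and up to 4 called genes of each related list. MRPL17 was added for its promoter. Coordinates are from RefSeq (GRCh38.p14), which matched 77 of the 78 genes.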

Additional observations from a re-analysis of the deposited data

How the results depend on the processing

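In RNA the calls rested on small effects and 2 libraries a group: 0 genes of the set were higher and 0 lower with no filter on low values or with a replicate block (which also left 0 calls in the whole table, with 20 of the set at an unadjusted p under 0.05), and leaving out any RNA library gave 0 to 0 higher and 0 to 0 lower. The replicate numbers do not pair the libraries by the labels, and deviations of same-numbered libraries correlated with r of 0.0265 over genes. For footprints and translational efficiency no paired analysis was possible because the sh-circMYBL2 footprint columns carry no replicate number. A minimum mean of 5 FPKM gave 5 higher of 58, where 664 of 6263 genes were higher, and voom on recovered reads 7 higher and 7 lower of 73, where 1722 and 1528 of 12489 were. Scaling to the sum of protein-coding values gave 11 higher and 0 lower with a median of 0.13; it moved the median of all genes to 0.11 and the split of all calls to 1918 higher and 351 lower, from 615 and 494, so the set moved with the table. The RNA median ran from -0.01 to 0.02 with a library left out.

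The median footprint change of the set was 1.38 and 0.28 with pseudocounts of 0.1 and 5, 0.87 with no filter, 0.56 with a minimum mean of 5, 0.27 after quantile normalization, 0.35 by voom and 0.12 among genes above 0 in every footprint library, an alternative chosen after seeing the data. Leaving out a library gave 0.54 to 0.88, with 0 to 5 genes called higher and 0 to 0 lower; without sh-circMYBL2 library a there were 5 of 72, where 742 of 8987 genes were higher, and without library b 4 of 71, where 710 of 8961 were. The efficiency median was 1.45 and 0.31 with those pseudocounts, 0.66, 0.16, 0.70 and 0.34 with a minimum mean of 5, quantile normalization, protein-coding scaling and voom, and 0.0583 among genes above 0 in every footprint library. A pseudocount of 0.1 called 4 genes higher of 70, where 812 of 8260 were, and no filter 1 of 76, where 549 of 12533 were. Leaving out a library gave medians of 0.63 to 0.89, with 0 to 30 called higher and 0 to 14 lower. Among the genes followed under each alternative (11 in RNA, 10 each in footprints and efficiency), MRPS18A in RNA ran from -0.0663 to 0.1838 and MRPS30 from -0.1243 to 0.0133 with a library left out, changing direction without sh-circMYBL2 library 1, and MRPS30 was at 0.0673 with protein-coding scaling, with no call in any of these. The cause of these shifts was not tested. With 506 sh-NC footprint reads over 78 genes, most single genes could not be resolved there.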
